A study of Mus musculus with 10 samples.

Results

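The genes described here are those that set supporting cells (SCs) of the mouse cochlea most sharply apart from all native hair cells measured in the study. They were chosen by CPM, a gene's count as a share of all gene counts of its library, scaled to 1000000. A gene was selected when it reached at least 20 CPM in both SC libraries and when the lower SC value was at least 10 times the highest value in any of the 6 libraries of native hair cells. The rule was met by 45 of the 34590 genes listed, and by 45 of the 4586 genes that reached 20 CPM in both SC libraries. The SC and native values that chose them are therefore a description, and SCs were not tested against native hair cells. The converted hair cells (cHCs) were not used by the rule, and their values are the measurement of interest. The comparisons of cHCs with SCs or native cells reuse the values that chose the genes, and the choice favours their direction.

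The data were bulk RNA-seq libraries of handpicked mouse cochlear cells, 2 for each of 5 cell types, named below by library number or age. SC 12 and SC 11 were tdTomato+ cells, at P27 and P26, of mice with Fgfr3iCreER and a Cre-dependent tdTomato reporter in Rosa26 (CAG-loxP-stop-loxP). cHC 13 and cHC 16 were P33 cells that carried in addition the Atoh1-HA transgene and an alpha9 AChR-EGFP reporter; they had been pillar or Deiters' cells and were made to express Atoh1, the transcription factor that specifies hair cells. Both the SC and the cHC mice received tamoxifen at P12 and P13, so both had an induced Cre. The native hair cells were P7 outer hair cells (P7 OHC 15 and 14), mature outer hair cells of prestin-YFP knock-in mice, whose labels read as 21 and 22 days (mature OHC P21 and P22), and inner hair cells of Pvalb-Cre; tdTomato mice at 74 and 75 days (IHC P74 and P75). The genotype of the P7 cells differs between sources, since their labels name the same prestin-YFP knock-in but the study's supplement names Prestin-CreERT2 and a tdTomato reporter, induced by tamoxifen at P2 and P3. In all lines the cells were picked by fluorescence, and the Cre line or reporter decided which cells could be picked. The SCs, cHCs and P7 OHCs carry library numbers of one series and the mature OHCs and IHCs those of another, and a difference between these series cannot be told apart from one between cell types. The cells were compared at different ages, so that age and cell type cannot be told apart either.

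Pillar and Deiters' cells are epithelial cells that hold the hair cells in place, buffer their ions and transmitters, and secrete or anchor extracellular matrix. They are known for Notch signalling, which switches on Hes and Hey repressors in them, and for the FGF receptor gene Fgfr3. A cHC begins as such a cell, so the genes described here can show how near its transcripts lie to the SC level. They fell, by general knowledge of their products, into 4 genes of the matrix, 3 calcium- or sugar-binding proteins, 8 metabolic enzymes, 2 proteases, 6 transporters and channels, 10 signalling genes, 6 membrane proteins and 6 others. GENCODE M1 (mm9) held a model for 44 of them, of which 43 were protein coding and Olfr1372-ps1 was a pseudogene. 0610007N19Rik was not matched by symbol. They lay on 15 chromosomes, with 7 on chromosome 10 and 7 on chromosome 15.

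Between 15016129 and 40518766 reads were counted on genes per library, so that 3 counts corresponded to 0.0740 to 0.200 CPM. Summed over the fixed lists of other cell types, macrophage markers gave at most 30.9 CPM, endothelial markers at most 15.3 CPM and red blood cell markers at most 47.7 CPM in any library. Schwann and satellite cell markers gave 7.58 to 306 CPM, with 48.5 and 88.1 in the SC libraries, and melanocyte and stria markers gave 0.333 to 68.1 CPM, the highest in SC 12. Fibroblast and tympanic border cell markers were highest in the SC libraries, at 717 and 775 CPM against 93.9 to 473 in the other 8, and Lum, one of the 45 genes, made up most of both SC sums. Spiral ganglion neuron markers gave 2.21 and 0.740 CPM in the SC libraries and 230 to 919 CPM in the others. The 18 hair cell markers summed to 493 and 620 CPM in the SC libraries and to 7308 to 11538 CPM in the other 8. With 2 libraries a cell type, the value of each library is given in place of an SD, and the adjusted p of edgeR (FDR) measures only the spread between these libraries, which may be technical. In bulk samples, fewer cells of a type and less RNA per cell cannot be told apart.

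**Figure D1:**
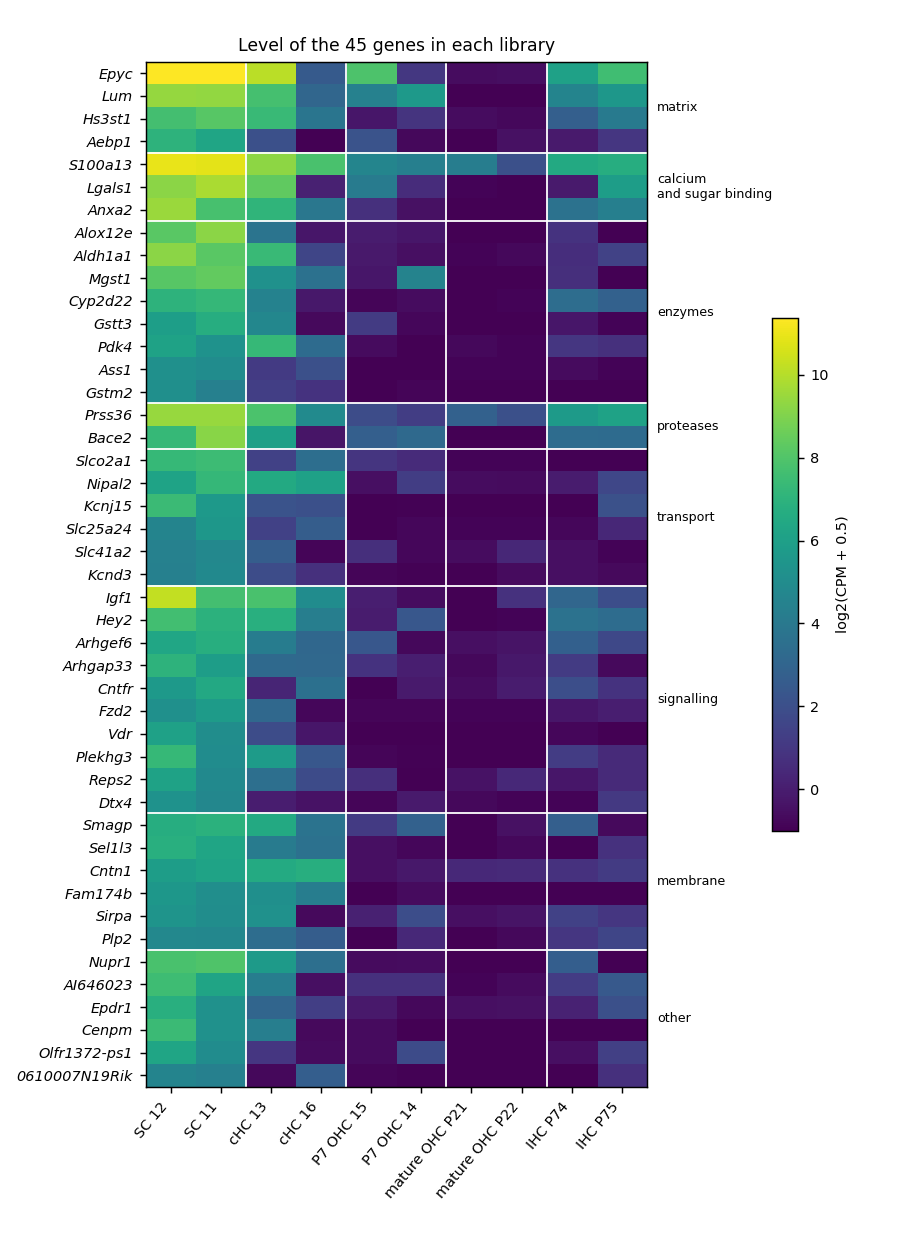
Level of each of the 45 genes (rows, by role) in each of the 10 libraries (columns), as log2 of CPM plus 0.5; white lines divide cell types and roles. The SC columns are bright throughout by choice, cHC 13 is intermediate, and cHC 16 is dark for most genes but bright for S100a13 (228 CPM), Cntn1 (109 CPM) and Nipal2 (66.3 CPM).

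The word absent held strictly for some of these genes only. All 6 native libraries lay under 2 CPM for 20 of the 45, but 10 reached at least 10 CPM in some native library and 6 reached at least 20 CPM. The highest native value lay in an IHC library for 31 genes, in a P7 OHC library for 14 and in a mature OHC library for none. Summed over the 45 genes, the SC libraries held 13037 and 11465 CPM, P7 OHCs 341 and 133, mature OHCs 28.4 and 14.4, and IHCs 333 and 576. Mature OHCs had no count at all for 15 genes. The rule also left out most textbook SC markers. Of 31 fixed SC markers, 23 reached 20 CPM in both SC libraries and 1, Hey2, was selected. Of the 22 that missed the ratio, 18 were highest in an IHC library. Sox9, a transcription factor of SCs, measured 401 and 225 CPM in SCs but 104 and 70.8 in IHCs, and Gjb2, the connexin 26 gene, measured 124 and 365 CPM in SCs and 665 and 514 in IHCs. The 45 genes are therefore SC genes that were also at least 10 times lower in both IHC libraries, and not the set of all SC genes.

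Close to the ratio threshold, Prss36 (10.02), Sirpa (10.05) and Plp2 (10.1) lay just inside it, and Pcdh17 (9.96), Epb4.1l4a (9.86) and Paqr4 (9.68) just outside. Close to the level threshold, Kcnd3 (20.4 CPM), Gstm2 (20.5) and 0610007N19Rik (20.6) were inside, while Ggta1 (19.9), Zp1 (19.6) and Lonrf3 (17.97) were outside.

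The question the cHC libraries can answer is at what level these SC transcripts stood in them. Their summed levels lay between those of SCs and native hair cells, and the replicates differed widely. Whether RNA of these genes was kept from the former SC was not tested. Summed over the 45 genes, cHC 13 held 4232 CPM and cHC 16 681 CPM. The median gene stood at 18.99% of its SC mean in cHC 13 and at 4.48% in cHC 16. In cHC 13, 7 genes were in the SC range (at least the lower SC value), 33 lay between the SC and native ranges and 5 were in the native range (at most the highest native value). In cHC 16 the counts were 1, 23 and 21. Cntn1 alone was in the SC range in both, 16 genes were between the ranges in both, and 3 were in the native range in both.

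**Figure D2:**
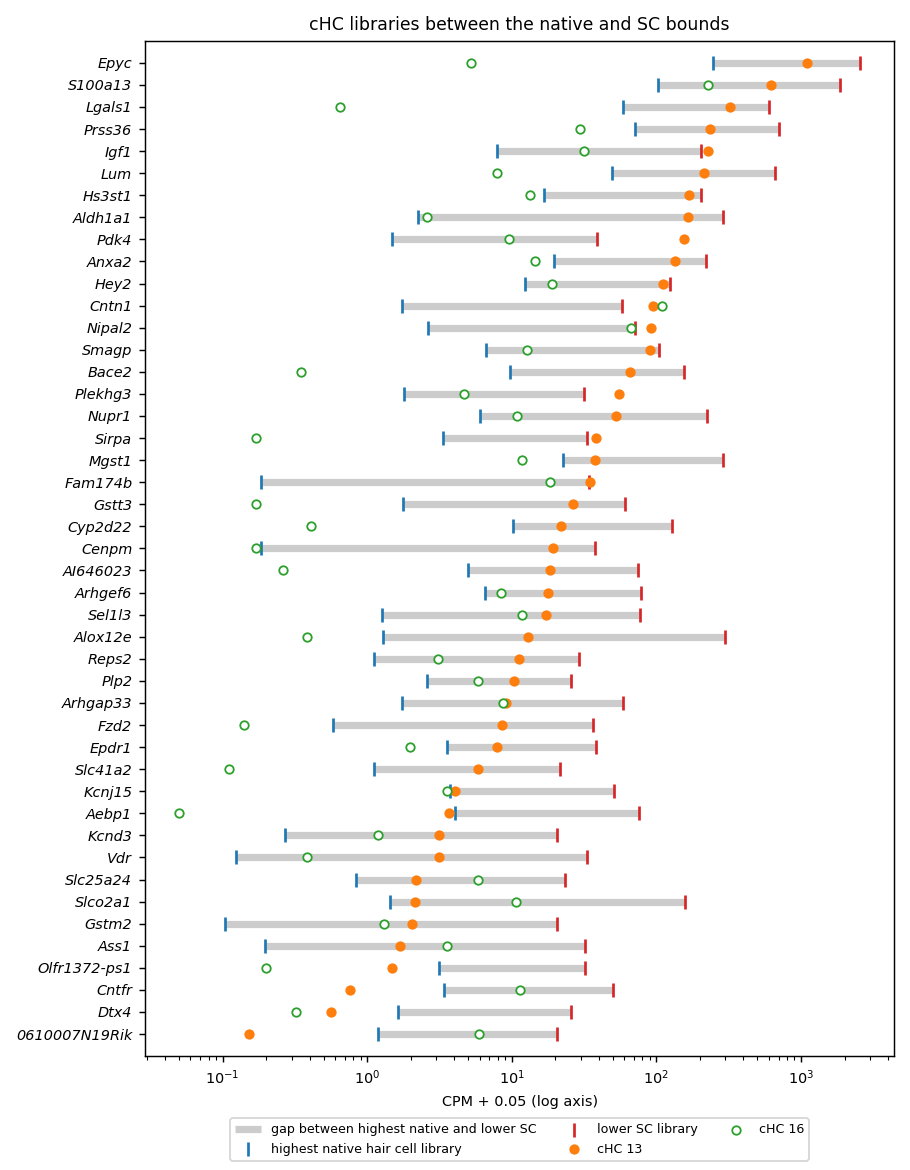
CPM plus 0.05 on a log axis for each gene, ordered by its level in cHC 13. Grey bars span the gap from the highest native library (blue tick) to the lower SC library (red tick), filled points are cHC 13 and open points cHC 16. Filled points lie mostly inside the bars, and 21 open points lie at or left of the blue tick.

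Both cHC libraries lay below both SC libraries for 38 of the 45 genes, against 15.5% of the 16891 genes tested. Selection on high SC values favours such a fall, here and in the fits below, and the genes of the background were not selected in this way. In the edgeR fit of all 10 libraries, the log2 fold change from SC to cHC was negative for 43 of 45 genes, with a median of -3.16 against 0.03 over all genes tested. No gene passed an FDR of 0.05 as lower in cHCs than in SCs, where the background was 0.0888% of all genes. At an unadjusted p under 0.05, 17 were lower, against 4% of all genes. DESeq2 called 14 (background 2.31%) and limma-voom 18 (background 1.63%). The gene nearest the threshold in edgeR was Slco2a1, at FDR = 0.0585. The number changed when cHC 13 was left out, but no share over all genes was taken for that fit.

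Against the native hair cells the picture was the reverse. Both cHC libraries exceeded all 6 native libraries for 22 of the 45 genes, against 11.4% of the genes tested. In edgeR, 23 genes were higher in cHCs than in the mean of the 3 native cell types at FDR under 0.05 and none was lower, where 3.45% of all genes were higher. Selection on low native values favours this direction also, and the genes of the background were not selected in this way. The FDR of a gene, here and below, is therefore not independent of the choice. The median log2 fold change was 5.72, against 0.20 over all genes tested. At an unadjusted p under 0.05, 41 were higher, against 14.3% of all genes. DESeq2 called 40 (background 7.45%) and limma-voom 15 (background 5.8%). For 17 of the 45 genes a native cell type had 0 counts in both libraries, and their fitted fold change depends on the prior count, so that CPM are given for them below. With every native library set to at least its level of 3 counts, the median log2 ratio of cHC to native mean CPM over the 45 genes was at least 3.69, whereas the edgeR contrast averages the 3 native cell types on the log scale.

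Taken by native cell type, 14 genes were higher in cHCs than in mature OHCs (background 2.02%), 2 than in IHCs (0.503%) and 1 than in P7 OHCs (0.124%). The gene called in all 3 was Cntn1, and the second against IHCs was Slco2a1. Whether the count differs between the native cell types was not tested. Leaving out cHC 13 or cHC 16 changed the number higher than the mean of native hair cells, and no share over all genes was taken for those fits.

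**Figure D3:**
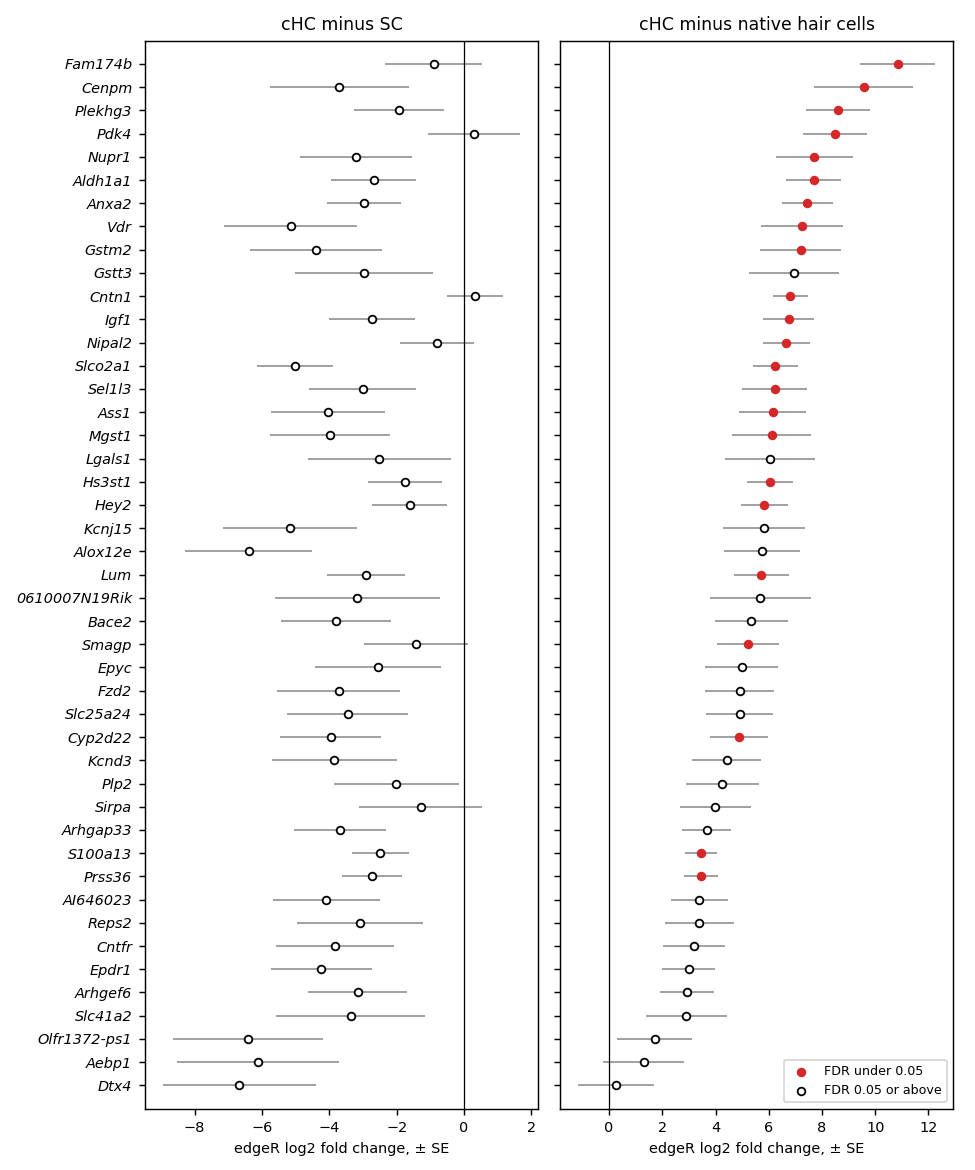
edgeR log2 fold change with its SE for each gene, of cHC minus SC (left) and cHC minus the mean of the native hair cells (right); filled points have FDR under 0.05. No point is filled on the left and 23 are filled on the right, where Fam174b, Cenpm and other genes with a native cell type at 0 counts have fitted values that depend on the prior count.

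Most genes set the 2 cHC libraries apart in the same direction. cHC 13 was the higher for 39 of the 45 genes, against 56.6% of the other genes past 20 CPM in both SC libraries and 45.1% of all genes tested. It was higher by more than 10-fold for 17, and only 9 were within 2-fold. No share over all genes was taken for these fold counts, but quartiles of the log2 ratio of cHC 13 to cHC 16 (CPM plus 0.5) were. The lower and upper quartiles were 0.52 and 3.95 over the 45 genes. They were -0.47 and 0.85 over the other genes past 20 CPM in both SC libraries, and -0.99 and 0.74 over all genes tested. In the SC pair, 26 were higher in SC 12, 32 were within 2-fold and none was 10-fold higher in SC 12. The rule asked for a high value in both SC libraries, which favours their agreement. The SC pair is therefore no measure of replicate spread to set beside the cHC pair. The median log2 ratio of cHC 13 to cHC 16 was 2.23 over the 45 genes, 0.15 over the 4541 other genes past 20 CPM in both SC libraries and -0.06 over all genes tested. This is a comparison of 1 library with 1 and has no test. Of the 31 SC markers, 26 were higher in cHC 13, and Hes5, Prox1, Lfng, Lgr5 and Id4 were higher in cHC 16. They summed to 10567 CPM in cHC 13 and 5531 in cHC 16, against 20315 and 22887 in SCs, and Zbtb20, S100a1 and Fbxo2 held the larger part of each sum. Hair cell markers summed to 7308 CPM in cHC 13 and 10548 in cHC 16, and Atoh1 itself, whose endogenous and transgenic reads were not separated here, to 436 and 2151. Fibroblast markers summed to 248 CPM in cHC 13 and 93.9 in cHC 16, of which Lum was the larger part in cHC 13. The titles of cHC 13, SC 12 and P7 OHC 15 share a form that those of cHC 16, SC 11 and P7 OHC 14 lack, and the former 3 libraries were the shallower of each pair, with 15016129 to 22597688 counted reads against 33162033 to 40518766. Over the 45 genes, the median log2 ratio of SC 12 to SC 11 was 0.10. That of P7 OHC 15 to 14 was 0.03, with 24 genes higher in P7 OHC 15. The rule kept these genes low in P7 OHCs, with medians of 0.333 CPM in P7 OHC 15 and 0.214 in P7 OHC 14. In the same order, 21 and 15 of the 45 had at most 3 counts. The P7 OHC pair therefore cannot show whether the 2 forms of title differ for these genes. The SC pair, chosen high in both libraries, cannot show it either. The part of the marker and Atoh1 levels in the difference between the cHC libraries was not tested. Neither was the part of whatever the 2 forms of title stand for.

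**Figure D4:**
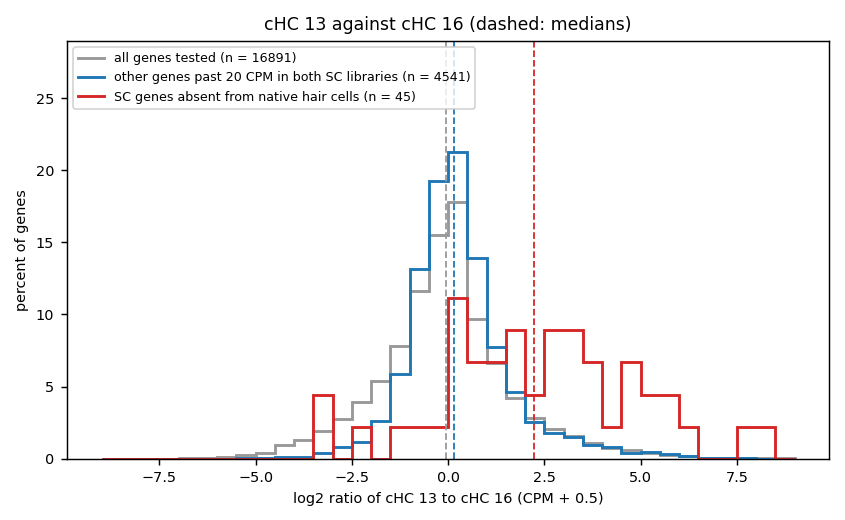
Percent of genes in each bin of the log2 ratio of cHC 13 to cHC 16 (CPM plus 0.5), for the 45 genes, for the 4541 other genes past 20 CPM in both SC libraries and for all 16891 genes tested; dashed lines are medians. The median of the 45 genes is 2.23 and those of the other sets are 0.15 and -0.06.

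**Figure D5:**
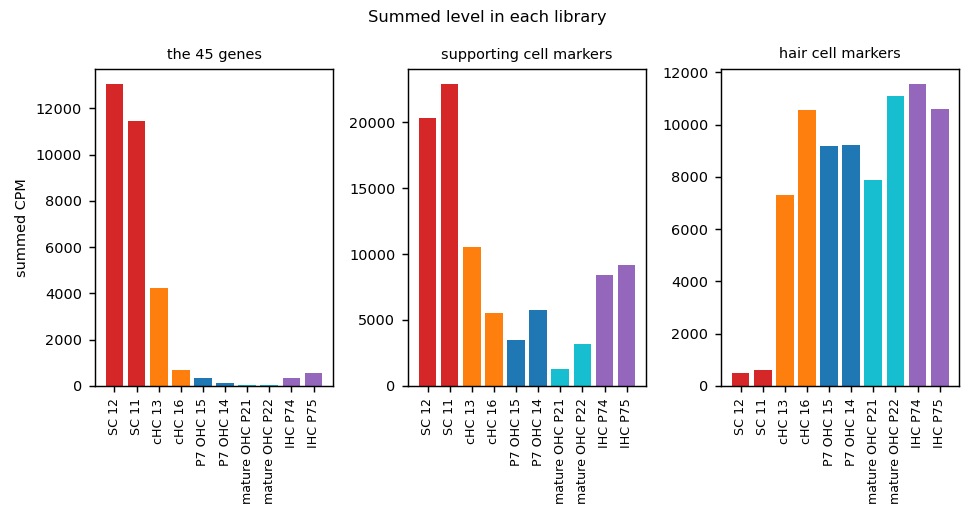
Summed CPM in each library of the 45 genes, of the 31 SC markers and of the 18 hair cell markers; bars start at 0 and are coloured by cell type. The 45 genes and the SC markers are both lower in cHC 16 than in cHC 13, and the hair cell markers are higher.

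Among the matrix genes, Epyc and Lum encode small leucine-rich proteoglycans that bind collagen. Epyc was the most abundant of the 45 genes, with 2651 and 2571 CPM in SC 12 and SC 11, 1101 and 5.16 in cHC 13 and cHC 16, 245 and 1.53 in P7 OHC 15 and 14, 0.154 and 0.187 in mature OHC P21 and P22 and 67.5 and 193 in IHC P74 and P75. cHC 13 lay between the SC and native ranges, at 42.2% of the SC mean, and cHC 16 lay within the native range, under P7 OHC 15 and both IHC libraries. Epyc was not called in either comparison (FDR = 0.558 against SCs and 0.0692 against native hair cells). Lum measured 681 and 665 CPM in SCs, 213 and 7.84 in cHC 13 and cHC 16, 21.4 and 49.3 in P7 OHC 15 and 14, 0 in both mature OHC libraries and 23.4 and 46.8 in IHC P74 and P75. Its cHC 16 value was below those of all P7 OHC and IHC libraries, but it was called higher than native cells (FDR = 0.0146), with both mature OHC libraries at 0 counts. The genes are neighbours on the + strand of chromosome 10 in mm9, with Lum at chr10:97028135-97035337, Epyc at chr10:97106702-97145088 and 71365 bases between them. Lum is also on the fixed fibroblast list. Of the other genes of that list, Col1a1 was at 0.708 and 0 CPM in SC 12 and SC 11, Col3a1 at 0.443 and 0 and Postn at 0 in both. In the same order, Pdgfrb was at 14.03 and 3.28, Emilin2 at 0 and 17.6 and Col1a2 at 1.28 and 0. Pdgfra was at 0.0885 and 0.0247, and Tbx18 at 0 in both. Dcn, another proteoglycan of the same family, was at 18.7 and 89.5, and its SC 11 value was the highest of the 10 libraries.

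Hs3st1, which adds a 3-O-sulfate to heparan sulfate, was at 203 and 286 CPM in SCs, 168 and 13.4 in cHC 13 and cHC 16 and 0.0936 to 16.7 in native cells. It was higher in cHCs than in native cells (log2 fold change 6.04, SE 0.85, FDR = 0.00382). Its cHC 16 value was within the native range, and its FDR against IHCs alone was 0.341. Aebp1, a secreted carboxypeptidase-like protein, was among the 8 genes with the lowest cHC level relative to SCs. It measured 127 and 76.1 CPM in SCs, 3.62 and 0 in the cHCs and up to 3.996 in native cells, so that both cHC libraries were in the native range. Of the 24 genes of the fixed extracellular matrix list, 21 were tested and none was called in either direction against SCs. Against native cells, 1 (Col18a1) was higher in cHCs, where 3.45% of all genes were.

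The calcium- and sugar-binding proteins were abundant in SCs. S100a13, a small calcium-binding protein linked to release of FGF1, stood at 1987 and 1850 CPM in SC 12 and SC 11, 622 and 228 in cHC 13 and cHC 16, 23.97 and 19.9 in P7 OHCs, 18.5 and 3.604 in mature OHCs and 90.5 and 103 in IHCs. Both cHC values lay between the ranges without overlap on either side, and the gene was higher than in native cells (log2 fold change 3.45, SE 0.59, FDR = 0.00965) with an FDR of 0.213 against SCs. Per kb of exon it had the highest SC level of the 44 genes with a model, at 2684 CPM per kb, ahead of Epyc at 1019 and Lgals1 at 933. Lgals1, which encodes galectin-1, had the largest log2 ratio of cHC 13 to cHC 16, with 325 CPM in cHC 13 and 0.603 in cHC 16, against 602 and 891 in SCs and 0 to 58.3 in native cells. Anxa2, an annexin of the membrane cortex, had 734 and 221 CPM in SCs and 134 and 14.5 in cHCs, while no P7 or mature OHC library exceeded 1.13 and the IHCs had 12.1 and 19.5. Anxa2 was higher in cHCs than in native cells (FDR = 0.00336), although its cHC 16 value was within the native range. It was not called with limma-voom (FDR = 0.0567), and its edgeR FDR against IHCs alone was 0.440.

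Of the 8 enzymes, 6 were higher in cHCs than in native cells in edgeR, against 23 of the 45 genes and 3.45% of all genes tested. No test was made between roles. Alox12e, an epidermal lipoxygenase, and Aldh1a1, which makes retinoic acid from retinaldehyde, had similar SC levels and different cHC levels. Alox12e measured 297 and 587 CPM in SCs and 12.9 and 0.332 in cHCs, whose higher value was 2.92% of the SC mean. Aldh1a1 measured 593 and 291 CPM in SCs, 166 and 2.53 in cHCs and at most 2.19 in native cells. In edgeR it was among the 10 genes with the lowest p against native cells (log2 fold change 7.68, SE 1.02, FDR = 0.00292). It was not called with limma-voom (FDR = 0.152) or without cHC 13. Alox12e was not called in either comparison (FDR = 0.155 and 0.0536). The glutathione transferases Mgst1, Gstt3 and Gstm2 conjugate reactive compounds with glutathione. Mgst1 was at 287 and 339.99 CPM in SCs and 37.8 and 11.6 in cHCs, with 22.4 in P7 OHC 14 and at most 1.06 in the other native libraries. It was called higher than the native mean (FDR = 0.0493), with both mature OHC libraries at 0 counts. Its cHC 16 value was within the native range, and its FDR against P7 OHCs alone was 0.928. Gstt3 was at 60.8 and 103 CPM in SCs and 26.3 and 0.121 in cHCs, and Gstm2 at 35.8 and 20.5 CPM in SCs and 1.99 and 1.27 in cHCs. Both belong to families of similar genes, as does Cyp2d22, and their counts are uncertain to that extent. Gstt3 shares exon sequence on its own strand with another gene model. Cyp2d22, a cytochrome P450, was at 127 and 149 CPM in SCs and 21.8 and 0.362 in cHCs, against 10.1 and 6.71 in IHC P74 and P75. It was called higher than the native mean (FDR = 0.0316), but its cHC 16 value was within the native range. Its FDR against IHCs alone was 0.973.

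Pdk4, a kinase that inhibits pyruvate dehydrogenase, went against the other enzymes. It measured 69.7 and 39.02 CPM in SC 12 and SC 11, 155 and 9.53 in cHC 13 and cHC 16 and at most 1.43 in native cells. cHC 13 was above both SC libraries and cHC 16 below both. The gene was higher in cHCs than in native cells (log2 fold change 8.49, SE 1.20, FDR = 0.00382). Ass1, the argininosuccinate synthase of the urea cycle, was at 36.02 and 31.96 CPM in SCs and 1.63 and 3.498 in cHCs, one of 6 genes lower in cHC 13 than in cHC 16, and no native library exceeded 0.147 CPM.

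The proteases were Prss36, a secreted serine protease with several protease domains, and Bace2, an aspartyl protease related to the beta-secretase. Prss36 was at 707 and 711 CPM in SCs, 236 and 29.6 in cHCs, 3.13 and 1.87 in P7 OHCs, 6.72 and 3.604 in mature OHCs and 53.04 and 70.5 in IHCs. The IHC values exceeded cHC 16, and the gene was higher in cHCs than in the native mean (log2 fold change 3.45, SE 0.63, FDR = 0.0126). Bace2 was at 154 and 575 CPM in SCs and at 65.8 and 0.302 in cHCs, and at 0 counts in both mature OHC libraries with 6.13 to 9.71 CPM in the other native libraries.

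The 6 transporters and channels had medians of 9.39% of the SC mean in cHC 13 and 5.497% in cHC 16, a description of genes whose roles were assigned by hand, with no test between roles. Slco2a1, which takes up prostaglandins, was at 158 and 179 CPM in SCs, 2.09 and 10.7 in cHC 13 and cHC 16, 1.399 and 0.937 in P7 OHCs, 0.0513 and 0.0468 in mature OHCs and 0 counts in IHCs. Both cHC values were far under the SC values and above all native ones (log2 fold change -5.03, SE 1.12, FDR = 0.0585 against SCs, and FDR = 0.00425 against native cells). Kcnj15, an inward rectifier potassium channel, was at 173 and 50.99 CPM in SCs and 4.03 and 3.53 in cHCs, close to the 3.696 CPM of IHC P75 and above the other native libraries. Kcnd3, an A-type potassium channel subunit, was at 20.4 and 28.7 CPM in SCs and 3.11 and 1.15 in cHCs. The mitochondrial carrier Slc25a24 was at 23.4 and 46.4 CPM in SCs and 2.14 and 5.79 in cHCs and the magnesium transporter Slc41a2 at 21.5 and 26.8 CPM in SCs and 5.81 and 0.0603 in cHCs. Nipal2, of the NIPA family of magnesium transporters, was the exception. It was at 71.6 and 148 CPM in SC 12 and SC 11, 92.4 and 66.3 in cHC 13 and cHC 16, 0.1998 and 1.85 in P7 OHCs, 0.154 and 0.1404 in mature OHCs and 0.476 and 2.56 in IHCs. cHC 13 was inside the SC range and cHC 16 was just under it, and the gene was higher than in native cells (log2 fold change 6.66, SE 0.89, FDR = 0.00295).

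Signalling genes included Hey2, a basic helix-loop-helix repressor switched on by Notch, and the only fixed SC marker selected. Hey2 measured 197 and 125 CPM in SC 12 and SC 11, 110.4 and 19.1 in cHC 13 and cHC 16, 0.466 and 4.63 in P7 OHCs, 0 and 0.0468 in mature OHCs and 12.3 and 9.77 in IHCs. Both cHC libraries were below both SC libraries and above all native ones, and the gene was higher than in native cells (log2 fold change 5.84, SE 0.90, FDR = 0.0053) with an FDR of 0.525 against SCs. Of the 16 Notch pathway genes tested, 1 (Jag2) was higher and none was lower in cHCs than in SCs. Of all genes tested, 0.0888% were lower, and no share was taken for higher ones. Against native cells, 6 were higher, where 3.45% of all genes were. Hey2 was among them beside Notch1, Jag1, Mfng, Hey1 and Nrarp, and the list was not tested as a set. Dtx4, a Deltex ubiquitin ligase of the Notch pathway outside that list, had the lowest cHC level relative to SCs of the 45 genes, at 39.4 and 25.7 CPM in SCs, 0.5097 and 0.271 in cHCs and up to 1.58 in native cells.

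Since Hey2 is a Notch target, the sequence bound by RBPJ, the DNA-binding partner of Notch, was looked up in the promoters. RefSeq promoters of GRCm38.p6, from 250 bases before to 50 bases after a gene's start, were matched by symbol for 30 of the 45 genes. The letters GTGGGAA, on either strand, occurred in the windows of Hey2, Anxa2 and Pdk4, that is in 3 of the 30 genes and in 7.25% of all 27025 genes with a window. Hey2 holds them at more than 1 place, one 207 and one 4 bases before the start. The 30-base stretches are shown because they hold the letters (in capitals, on either strand) for the Notch effector and for the other genes with a match.
Anxa2, chr9:69453593-69453622, + strand: cacccagcaggGTGGGAAcaggccggggag
Hey2, chr10:30842769-30842798, - strand: tgggctgcagcGTGGGAAagaacctccagg
Hey2, chr10:30842972-30843001, - strand: gcgcggtggcaTTCCCACgcctctgccaac
Pdk4, chr6:5496297-5496326, - strand: gacatcgggtgGTGGGAAgacccaagtgtc
The SOX-type letters ACAATGG, on either strand, were found in the windows of Epdr1, Epyc and Igf1 (3 of the 30 genes and 4.15% of all). The stretch of Epyc, the most abundant gene, follows, with the letters in capitals and starting 238 bases before the gene's start.
Epyc, chr10:97643819-97643848, + strand: atttgaaacgaCCATTGTtttgtgtaattt
The E-box CAGNTG occurred in 18 of the 30 windows and 54.6% of all, and TATAAA in 5 of the 30 and 15.7% of all, on either strand. A match of letters is a description and not evidence of binding.

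Igf1, the insulin-like growth factor, was the most uneven between the SC libraries, at 1213 and 205 CPM. It was at 228 and 31.8 CPM in cHC 13 and cHC 16, 0.533 and 0.161 in P7 OHCs, 0 and 1.22 in mature OHCs and 7.91 and 3.36 in IHCs. Both cHC values exceeded all native values (log2 fold change 6.75, SE 0.97, FDR = 0.00425), but Igf1 was not called with limma-voom (FDR = 0.116). Fzd2, a Frizzled receptor for Wnt ligands, was at 36.3 and 54.3 CPM in SCs, 8.51 and 0.0905 in cHCs and at most 0.528 in native cells. Of 16 Wnt pathway genes tested, none was called against SCs. Against native cells, 3 (Nkd1, Fzd4 and Fzd9) were higher in cHCs, where 3.45% of all genes were. Fzd2 was not among them (FDR = 0.0587). Cntfr, the receptor subunit for ciliary neurotrophic factor, was among the genes higher in cHC 16, with 50.1 and 89.1 CPM in SCs and 0.714 and 11.4 in cHC 13 and cHC 16. Vdr, the vitamin D receptor, was at 66.1 and 33.2 CPM in SCs and 3.11 and 0.332 in cHCs, with at most 0.0733 in native cells.

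The remaining signalling genes behaved unevenly. Plekhg3 was at 156 and 31.6 CPM in SC 12 and SC 11, 55.2 and 4.61 in cHC 13 and cHC 16 and at most 1.76 in native cells, and was higher in cHCs than in native cells (FDR = 0.00465). Arhgap33 was at 129 and 58.4 CPM in SCs and at 9.02 and 8.71 in the cHCs, one of the few genes on which the cHC libraries gave nearly equal values. Arhgef6 was at 78.2 and 108 CPM in SCs and 17.7 and 8.38 in cHCs, and Reps2, an endocytic adaptor of the Ral pathway, at 69.8 and 29.05 CPM in SCs and 11.1 and 3.02 in cHCs.

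The 6 membrane proteins had medians of 83.7% of the SC mean in cHC 13 and 17.3% in cHC 16, with no test against other roles, and single genes ranged widely, down to 0.320% for Sirpa in cHC 16. Cntn1 encodes contactin-1, a GPI-anchored adhesion molecule of the immunoglobulin family known from axons. It measured 57.7 and 72.7 CPM in SC 12 and SC 11, 95.4 and 109 in cHC 13 and cHC 16, 0.1998 and 0.375 in P7 OHCs, 0.821 and 0.889 in mature OHCs and 1.17 and 1.697 in IHCs. Both cHC libraries lay above both SC libraries, but the difference was within the spread of the fit (log2 fold change 0.33, SE 0.84, FDR = 0.912). Against native cells Cntn1 had the lowest FDR of the 45 genes (log2 fold change 6.82, SE 0.67, FDR = 0.000606), and it was higher than in P7 OHCs (FDR = 0.0223), mature OHCs (FDR = 0.0113) and IHCs (FDR = 0.0218) taken singly. The gene lies at chr15:91881596-92172398 in mm9, on the + strand.

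Fam174b, a single-pass membrane protein, was at 46.2 and 34.4 CPM in SCs and 34.9 and 18.3 in cHCs, while 5 of the 6 native libraries had 0 counts and P7 OHC 14 had 0.134 CPM. It was higher in cHCs than in native cells (FDR = 0.00458), and its fitted fold change depends on the prior count. Its exons overlap those of A830073O21Rik on the opposite strand, and the counting is not stated to use strand, but that gene did not exceed 0.177 CPM in any library. Sirpa, the receptor of CD47, showed the cHC difference most plainly in this group, at 42.2 and 33.1 CPM in SCs, 38.2 in cHC 13 and 0.121 in cHC 16. Smagp, a small transmembrane glycoprotein of epithelia, was at 104 and 119 CPM in SCs and 89.9 and 12.7 in cHCs, Sel1l3 at 112 and 77.4 CPM in SCs and 17.1 and 11.8 in cHCs, and Plp2 at 26.9 and 25.6 CPM in SCs and 10.3 and 5.82 in cHCs. Smagp (FDR = 0.0334) and Sel1l3 (FDR = 0.017) were higher in cHCs than in native cells and Plp2 (FDR = 0.111) was not called. Anxa2, Epyc, Kcnd3 and Plp2 also share exon sequence with a gene on the opposite strand, which reached at most 16.2 CPM (Gm16144, beside Anxa2).

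Among the remaining genes, Nupr1, a stress-induced chromatin protein, was at 223 and 251 CPM in SCs, 52.6 and 10.8 in cHCs and 0 to 6.01 in native cells, where it was 0 in 3 libraries. It was higher in cHCs than in native cells (FDR = 0.0167), as was Cenpm (FDR = 0.0246), a centromere protein at 171 and 37.7 CPM in SCs and 19.4 and 0.121 in cHCs. For Cenpm that call rests on cHC 13, since cHC 16 was below P7 OHC 15 at 0.133 CPM, and the gene was not called without cHC 13. Epdr1, an ependymin-related secreted protein, was at 112 and 37.9 CPM in SCs and 7.798 and 1.93 in cHCs. AI646023 was at 184 and 75.1 CPM in SCs and 18.4 and 0.211 in cHCs. The pseudogene Olfr1372-ps1, whose reads could come from related olfactory receptor genes, was at 77.9 and 31.8 CPM in SCs and 1.43 and 0.151 in cHCs, in the native range in both cHC libraries. 0610007N19Rik was the gene most in favour of cHC 16, at 23.1 and 20.6 CPM in SCs and 0.102 and 5.88 in cHC 13 and cHC 16.

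Without cHC 13, cHC 16 was the only cHC library, so that this fit took its spread from the other cell types alone. Of the 45 genes, those higher than native cells in it were Anxa2, Ass1, Cntn1, Fam174b, Hey2, Igf1, Nipal2, Nupr1, Plekhg3, Sel1l3 and Slco2a1. All were among the 23 called with both cHC libraries. In cHC 16, Anxa2 (14.5 CPM) lay under IHC P75 (19.5 CPM). The levels of these genes in cHC 16 differed widely. Cntn1, Nipal2 and Fam174b held 167%, 60.3% and 45.4% of the SC mean there, and the other 8 held between 3.04% (Anxa2) and 12.4% (Sel1l3).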

How the data were processed

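The authors amplified cDNA of handpicked cells by single primer isothermal amplification, sequenced both ends (CASAVA 1.7 per the labels), trimmed adapters with Cutadapt, mapped reads to mm9 with STAR and then BWA, and counted reads per gene with HTSeq. The deposited values are raw counts of reads per gene symbol, without normalization. In 4 of 10 records, the attached file belonged to a different library. The file of each library was settled by the constant ratio of the CPM columns of the study's supplementary table to its counts, over genes with at least 10 counts. No marker gene was used for this.

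CPM were computed from the counts over all gene rows, without the rows for unassigned reads. edgeR 4.0.16 in R 4.3.3 (TMM, filterByExpr by cell type, quasi-likelihood F-tests, 2-sided) was run on all 10 libraries in 1 model, with Benjamini-Hochberg adjustment over the 16891 genes kept. All 45 genes passed this filter. The SE was the log2 fold change divided by the square root of F. The script was tested on simulated data. Alternatives were DESeq2 1.42.0, limma-voom (limma 3.58.1), RLE factors, no filter, a fit of only the groups compared, other thresholds of the rule, TMM-scaled CPM, leaving out each library, and the files as attached. The rule without the IHC or the P7 OHC libraries, the comparison with each native cell type, and a block for 2 sets of library titles were added after seeing the data. Gene positions and exon lengths are from GENCODE M1 (mm9), and promoters from RefSeq (GRCm38.p6). Chromosome 18 was left out of the promoter search.

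The members and the gene lists were chosen with earlier results of these data known. Genes were named by a rule. It took the 10 with the highest lower SC level, and the 8 highest and the 8 lowest in cHCs relative to the SC mean. It also took the 8 largest and 4 smallest ratios of cHC 13 to cHC 16 among genes with at least 20 CPM in a cHC library. Those on a gene list, the 10 with the lowest p in each comparison and those next to a threshold were named too. The remaining members were named after their values were seen, so that each member is accounted for, and roles were assigned from general knowledge of the gene products. The single-cell RNA-seq was not analysed here.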

Additional observations from a re-analysis of the deposited data

How the results depend on the processing

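The number of genes chosen was 68 at a minimum of 10 CPM, 27 at 50 CPM, 122 at a ratio of 5 and 21 at a ratio of 20, and all 45 were among the 56 chosen from TMM-scaled CPM. It was 9 with the files as attached to the records, of which 5 were among the 45. Leaving out 1 library gave 47 to 196 genes, with 157 without SC 12, 196 without SC 11 and 96 without IHC P75. With only the 4 OHC libraries as native cells it was 214, and with only mature OHCs and IHCs 86. The number lower in cHCs than in SCs, 0 in edgeR, was 14 with DESeq2, 18 with limma-voom and 14 without the filter on low counts, and 0 to 8 when a library was left out (8 without cHC 13, and 2 without mature OHC P21, mature OHC P22, IHC P74 or IHC P75). The number higher than native hair cells, 23, was 40 with DESeq2, 15 with limma-voom, 36 without the filter, 13 with only the groups compared, 13 among genes past a ratio of 20, 0 with the files as attached, 14, 1 and 2 against mature OHCs, P7 OHCs and IHCs alone, and 11 to 29 when a library was left out. The cause of these changes was not tested, other than the smaller number of genes or libraries in some. Except for DESeq2, limma-voom and the single native cell types, no share over all genes was taken, so a change in the whole fit cannot be told apart. The number of genes in the SC range in both cHC libraries was 1, 0 with the files as attached, and 1 to 7 when a library was left out (7 without cHC 16). The median log2 ratio of cHC 13 to cHC 16, 2.23, was 1.36 with a pseudocount of 5 CPM, 1.72 over genes past a ratio of 20, 2.21 from TMM-scaled CPM and 3.30 over genes with at least 20 CPM in a cHC library. The median of all genes from SC to cHC was 0.03 in edgeR and 0.17 in limma-voom. Of the 10 genes with the lowest p in each comparison, none changed sign. Against SCs, 7 passed the threshold with DESeq2 and 8 with limma-voom. Against native cells 3 (Aldh1a1, Anxa2 and Igf1) lost it with limma-voom and 1 (Slco2a1) with only the groups compared. The groups share no replicate numbers, but SC, cHC and P7 OHC titles fall into 2 sets of 1 library each. Across 16891 genes, the log2 ratios between the sets correlated at -0.03 to 0.03 between cell types. What the libraries of a set share beyond the form of title and the depth was not tested. With the set as a replicate block, a choice made after seeing the data, 0 genes were lower in cHCs than in SCs in edgeR (22 at an unadjusted p under 0.05) and 3 were higher than in P7 OHCs, against 1 without the block.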

Other observations

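When both IHC libraries were left out of the rule, a choice made after seeing the data, 214 genes met it, including all 45. Among the 31 fixed SC markers, 8 were then chosen in place of 1, namely Gjb6, Hes1, Hey1, Hey2, Id1, Slc1a3, Sox10 and Sox9. Slc1a3, a glutamate transporter of SCs around the IHCs, measured 76.3 and 120 CPM in SC 12 and SC 11, 93.4 and 0.392 in cHC 13 and cHC 16, and 264 and 212 in IHC P74 and IHC P75. Id1, an inhibitor of basic helix-loop-helix factors, measured 197 and 94.8 CPM in SCs and 58.9 and 76.3 in IHCs, against at most 0.723 in OHCs. In the 2 IHC libraries the 31 SC markers summed to 8421 and 9195 CPM, against 1308 and 3176 in mature OHCs and 3513 and 5764 in P7 OHCs. The part of SC RNA in the IHC libraries was not tested.

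Of the 31 SC markers, 2 were called different between cHCs and SCs in edgeR, both lower in cHCs, S100a1 (FDR = 0.0381) and Fbxo2 (FDR = 0.0356). Of all genes tested, 0.0888% were lower. The median log2 fold change of the 31 markers was -1.81. In CPM, 19 lay below both SC libraries in both cHC libraries and 4 above, namely Hes5, Prox1, Fgfr3 and Lfng. Prox1 and Fgfr3, outside the 45 genes, were thus higher in both cHC libraries than in both SC libraries, as Cntn1 was. The former, a homeobox factor of SCs, measured 14.6 and 49.9 CPM in SC 12 and SC 11 and 296 and 348 in cHC 13 and cHC 16. The latter, the receptor whose promoter drives the Cre used here, measured 167 and 289 CPM in SCs and 549 and 512 in cHCs. Prox1 (FDR = 0.0344) and Fgfr3 (FDR = 0.0293) were higher in cHCs than in the mean of native hair cells in edgeR, and neither was called against SCs (FDR = 0.438 and 0.842). Both were named after their values were seen.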
